A study of Mus musculus with 4 samples.

Results

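Neurotransmitter-gated receptors are ion channels that open when glutamate, GABA or acetylcholine binds to them, and 32 of the mouse genes for their subunits were examined for open chromatin. They comprise 14 glutamate receptor genes (3 AMPA, 5 kainate and 6 NMDA), 8 GABA-A receptor genes and 10 nicotinic acetylcholine receptor genes, of 21938 protein-coding genes annotated in GENCODE M21 on mm10. A window was the gene body with 10 kb on each side, and the 32 windows covered 6.48 Mb. ATAC-seq, in which a transposase cuts open chromatin, was available as 4 lists of peaks, 1 library per line: SMC 1, SMC 2, non-SMC 1 and non-SMC 2. Wherever 4 values stand in a row they follow this order. All 4 were untreated cell lines of small cell lung cancer from the lung of *RP* mice (*Rb1* L/L, *Trp53* L/L) on a mixed background of C57Bl/6, Balb-c and S129. Both types therefore share the deletion of *Rb1* and *Trp53*, which was started in the airways with an adenovirus that carries Cre under the CMV promoter. SMC cells (SCLC metastasizing cells) were sorted as NCAM high and CD44 low or negative, and non-SMC cells as NCAM low and CD44 high. Each library came from a line kept in culture, so a difference between types is measured over 2 lines each, and a line may differ from the tumor cells it was sorted from.

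These genes are best known from neurons. AMPA, kainate and NMDA receptors are glutamate-gated cation channels that carry fast excitatory transmission, GABA-A receptors are chloride channels that inhibit, and nicotinic receptors are cation channels gated by acetylcholine. Small cell lung cancer has neuroendocrine features, and pulmonary neuroendocrine cells receive nerve endings and express nicotinic receptors. The E-box CAGCTG is bound by factors with a basic helix-loop-helix, AP-1 binds TGACTCA, TEAD factors bind GGAATG, and REST represses neuronal genes through the RE1 element. A peak shows accessible DNA and does not by itself show that the gene is expressed.

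The sequences of the regions on which the results turn are given first. They hold 100 bases on each side of the summit of the highest peak, on the plus strand of mm10, and capitals mark an E-box, AP-1 or TEAD match on either strand. The first 4 regions had a peak in each of the SMC lists but in no non-SMC list (SMC-only). They are the intron of *Grin3a* with the highest rank among the glutamate genes (chr4:49837927-49838127) and an intron of *Gria4* with an E-box (chr9:4505223-4505423). The others are the highest-ranked nicotinic region in an intron of *Chrnb4* (chr9:55044368-55044568) and the shared promoter of *Gabrb1* and *Gabra4* (chr5:71658269-71658469). A higher-ranked intron of *Gria4* (chr9:4460034-4460234) held none of these motifs, and 7 of all 29 SMC-only regions held an E-box.
Grin3a intron: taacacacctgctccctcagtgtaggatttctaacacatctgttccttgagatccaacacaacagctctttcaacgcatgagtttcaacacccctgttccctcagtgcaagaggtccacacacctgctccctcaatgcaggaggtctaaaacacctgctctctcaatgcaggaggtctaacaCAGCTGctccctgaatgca
Gria4 intron: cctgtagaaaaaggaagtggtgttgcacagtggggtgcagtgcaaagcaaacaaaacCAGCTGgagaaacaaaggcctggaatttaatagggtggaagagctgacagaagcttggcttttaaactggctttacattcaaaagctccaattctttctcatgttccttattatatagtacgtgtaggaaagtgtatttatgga
Chrnb4 intron: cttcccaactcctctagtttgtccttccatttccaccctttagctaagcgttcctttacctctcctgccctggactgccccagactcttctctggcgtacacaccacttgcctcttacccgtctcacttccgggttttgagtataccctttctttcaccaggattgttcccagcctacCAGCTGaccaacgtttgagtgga
Gabrb1 and Gabra4 promoter: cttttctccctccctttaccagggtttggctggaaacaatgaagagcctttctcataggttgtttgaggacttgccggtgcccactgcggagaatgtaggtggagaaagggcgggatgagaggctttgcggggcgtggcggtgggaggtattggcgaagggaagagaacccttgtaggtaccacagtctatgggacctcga

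The next regions had a peak in each of the non-SMC lists but in no SMC list (non-SMC-only). They are both highest-ranked introns of *Gria1* (chr11:57130240-57130440 and chr11:57091383-57091583), an intron of *Chrna9* (chr5:65973296-65973496) and an intron of *Gabrb2* (chr11:42611064-42611264), the highest-ranked of their receptor groups. Each of them holds at least 1 AP-1 match.
Gria1 intron, first rank: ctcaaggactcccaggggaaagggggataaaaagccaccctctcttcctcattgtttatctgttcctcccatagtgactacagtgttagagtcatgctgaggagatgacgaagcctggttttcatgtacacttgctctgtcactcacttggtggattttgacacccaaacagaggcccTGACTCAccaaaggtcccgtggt
Gria1 intron, second rank: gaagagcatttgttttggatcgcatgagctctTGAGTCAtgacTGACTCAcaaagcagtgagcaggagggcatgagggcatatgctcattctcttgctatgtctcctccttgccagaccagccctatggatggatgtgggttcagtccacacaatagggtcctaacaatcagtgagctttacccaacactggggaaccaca
Chrna9 intron: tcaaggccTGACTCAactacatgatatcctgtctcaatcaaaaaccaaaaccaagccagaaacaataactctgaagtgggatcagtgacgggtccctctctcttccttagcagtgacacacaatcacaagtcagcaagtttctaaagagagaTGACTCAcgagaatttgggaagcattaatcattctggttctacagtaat
Gabrb2 intron: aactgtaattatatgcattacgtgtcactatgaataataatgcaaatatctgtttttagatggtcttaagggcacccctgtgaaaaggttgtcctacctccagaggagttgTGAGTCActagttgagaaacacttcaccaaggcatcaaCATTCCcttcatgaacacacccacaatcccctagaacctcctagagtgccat

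The promoter of *Gria2*, from RefSeq on GRCm38.p6 (minus strand, chr3:80802786-80803085), is shown because it alone among the promoters of 24 genes with an entry holds the RE1 core, in capitals here. That core occurs in 0.0517% of the 32851 mouse promoters of 300 bases in the same table.
Gria2 promoter: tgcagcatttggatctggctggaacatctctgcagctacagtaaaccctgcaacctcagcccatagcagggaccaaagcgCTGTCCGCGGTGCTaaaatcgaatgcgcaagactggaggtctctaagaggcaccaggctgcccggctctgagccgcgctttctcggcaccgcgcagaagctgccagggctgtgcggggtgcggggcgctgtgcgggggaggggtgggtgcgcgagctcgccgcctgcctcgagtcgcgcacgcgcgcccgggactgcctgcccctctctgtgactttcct

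After removal of 61 to 85 peaks outside the main chromosomes, the lists held between 91057 and 153954 peaks down to a p-value of 0.01. They differed in depth and in how many peaks were strong. The lowest local background of a library, which rises with its depth, was 0.456, 1.54, 1.49 and 0.639, so that 1 line of each type was deep. Strong peaks, defined by a -log10 q of 5 or more, made up 38.0% of the list of non-SMC line 1 and 14.3% to 19.5% of the other lists. As a check of the labels, the promoter of *Chga* was SMC-only. The windows of *Cd44* and *Vim* took a larger share of the peaks in both non-SMC lines. *Epcam*, chosen as a marker of tumor epithelium in both types, also had an SMC-only promoter (2, 1, 0 and 0 peaks). It therefore gave no check of the labels. The promoters of *Ncam1*, *Syp* and *Vim* had peaks in all 4 lines, and those of *Insm1* and *Cd44* in 3, so they gave no check. The windows of *Ncam1*, the gene of the sorted marker, with 9, 31, 32 and 25 peaks, and of *Syp*, with 5, 5, 6 and 5, overlapped between the types. No test was made between types, because 2 lines against 2 cannot give a two-sided exact permutation p below 0.333, and differences are set beside the SD between lines of a type.

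As a set, the 32 windows held fewer peaks per Mb than other genes in every line. They held 139 and 298 peaks of the SMC lines against 144 and 240 of the non-SMC lines. The density was 21.4, 46.0, 22.2 and 37.0 peaks per Mb in that order, against 50.8, 79.6, 62.7 and 65.9 over the windows of all protein-coding genes. Windows of at least 100 kb gave 15.7, 38.3, 16.5 and 33.5 for 18 of the receptor genes, against 41.1, 70.2, 52.7 and 57.4 for all such genes. Of the whole lists these peaks were 0.153% (95% Wilson interval 0.129% to 0.180%), 0.194% (0.173% to 0.217%), 0.124% (0.106% to 0.146%) and 0.186% (0.164% to 0.212%), intervals that cover counting error only. The types overlapped, with a log2 difference of 0.18 (SMC minus non-SMC) beside an SD of 0.34 between lines (n = 2 per type). When counted over strong peaks alone (-log10 q of at least 5), of which the windows held 15, 43, 32 and 17, the same difference was 0.96 (SD 0.26).

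The 3 receptor groups differed in how closely they were filled. Nicotinic windows, which are short, had 59.5, 89.2, 57.3 and 57.3 peaks per Mb. Glutamate windows had 25.3, 56.6, 26.1 and 39.9, and GABA windows were the emptiest in all 4 lines, with 4.11, 13.4, 5.65 and 26.2. On the log2 scale of the share of listed peaks, the nicotinic group was higher in SMC by 0.39, more than the SD between lines of 0.12, and both line pairs of equal number gave similar values (0.40 and 0.38). That difference came from the neighbouring genes *Chrna5*, *Chrna3* and *Chrnb4*. The other 7 nicotinic windows held 18, 31, 23 and 25 peaks, a log2 difference of 0.02 (SD 0.02), a subset chosen after its values were seen. The glutamate group differed by 0.28 (SD 0.31), and the GABA group by -0.67 (SD 1.13) with the types overlapping. Within the glutamate genes the pooled AMPA windows differed by -0.55 (SD 0.17), a value set by *Gria1* alone. Without *Gria1*, left out after its values were seen, the *Gria2* and *Gria4* windows held 13, 15, 6 and 8 peaks, a log2 difference of 1.06 (SD 0.31). Kainate windows differed by 0.71 (SD 0.60) and NMDA windows by 0.29 (SD 0.20).

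Promoters, here 3 kb to either side of the transcription start site (TSS), separated the types more clearly than whole windows. A promoter peak was present at 18 and 22 of 32 genes in the SMC lines, against 8 and 13 in the non-SMC lines. With all listed peaks the SMC lines came near the level of all genes (56.3% and 68.8%, against 62.2% and 69.3%). The non-SMC lines lay below it (25.0% and 40.6%, against 64.6% and 64.9%). The mean difference was 29.7 percentage points, with an SD between lines of 10.0. It was there between both deep libraries (22 against 8 genes) and between both shallow ones (18 against 13). With strong peaks alone the counts were 4, 9, 1 and 1 (12.5%, 28.1%, 3.1% and 3.1%). All 4 lines then lay below the level of all genes (27.7%, 41.0%, 49.5% and 36.4%). After thinning all libraries to a common depth they were 16, 11, 3 and 8, while all genes then had 56.6%, 48.9%, 52.2% and 55.5%.

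**Figure D1:**
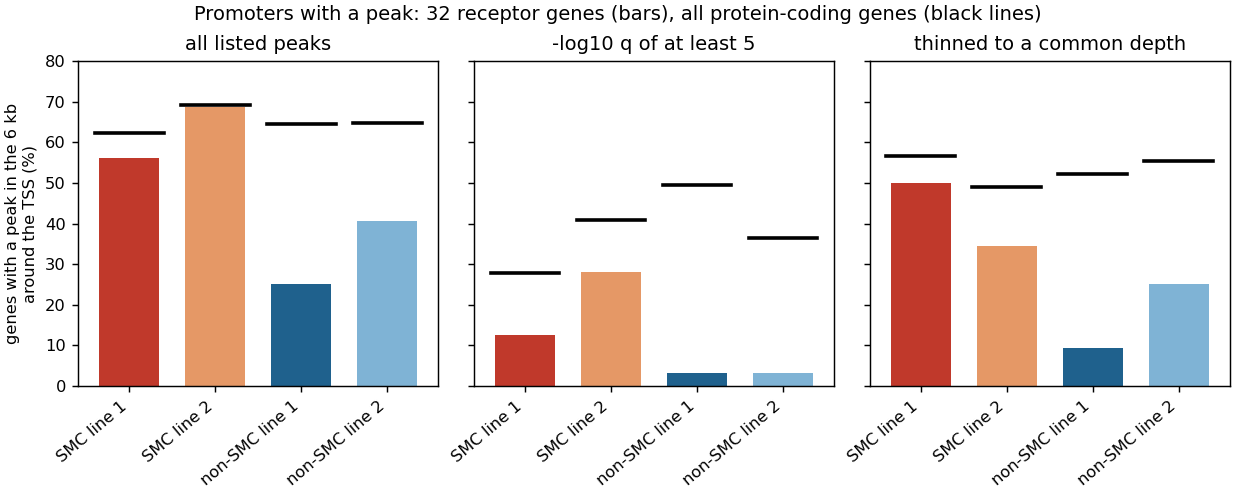
Share of the 32 receptor genes with a peak in the 6 kb around the TSS (bars, y axis in percent) in each line, with the share of all protein-coding genes as black lines, for all listed peaks, for strong peaks (-log10 q of 5 or more) and after thinning to a common depth. With all listed peaks the SMC bars reach 56.3% and 68.8% and the non-SMC bars 25.0% and 40.6%, while the black lines differ little between lines.

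By receptor group, glutamate promoters had a peak at 9, 10, 4 and 7 of 14 genes. GABA promoters had one at 3, 6, 0 and 4 of 8 genes, so that the types overlapped there. Nicotinic promoters had one at 6, 6, 4 and 2 of 10 genes, higher in both SMC lines.

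SMC-only promoters numbered 6 of 32 (18.8%), against 3.08% of all protein-coding genes. Among the 18 genes with windows of at least 100 kb there were 4 (22.2%), against 5.09% of all genes with such windows. They were the kainate receptor genes *Grik1* and *Grik2*, the NMDA receptor genes *Grin2b* and *Grin3a* and the nicotinic genes *Chrna4* and *Chrna5*. No promoter was non-SMC-only, against 2.45% of all genes and 2.32% of those with windows of at least 100 kb. A promoter peak in all 4 lines was found for *Gria4*, *Grik4*, *Grin2a* and *Chrnb2* (4 genes, 12.5%, against 48.7% of all genes). None of the lines had a promoter peak at *Grik3*, *Grin2d*, *Gabra6*, *Chrna2* or *Chrna6* (5 genes, 15.6%, against 19.2%). The TSS used here is the outermost start of the annotated gene. The RefSeq promoter of *Grin2d* lies inside that gene (chr7:45866632-45866931) and had a peak in SMC line 1 alone. That of *Chrna4* (chr2:181039128-181039427) also lies inside its gene, outside the 6 kb scored here, and had no peak in any line. The SMC-only call of *Chrna4* therefore holds for the outermost start alone.

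The SMC-only promoters differed in strength. A percentile is the rank of the fold enrichment of a peak within its own list. At *Grin3a* (ENSMUSG00000039579.15, chromosome 4, 49661611 to 49845744, minus strand), which encodes an NMDA subunit that lowers calcium permeability, the strongest promoter peak of SMC line 1 was 66 bp upstream of the TSS (87.0th percentile, pileup 10 reads) and that of SMC line 2 was 788 bp downstream (82.6th percentile, pileup 14 reads). At *Grik1* (chromosome 16, 87895900 to 88290265, minus strand), which encodes GluK1, the summits lay 29 and 21 bp upstream, at the 78.7th and 87.6th percentiles. *Grik2*, which encodes GluK2, had its strongest peak 122 bp downstream at the 82.6th percentile in SMC line 1 and peaks at the 54.6th percentile in SMC line 2.

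The other promoters of this class were weaker in at least 1 line. *Chrna5*, the gene of the accessory alpha5 subunit, had summits 533 and 440 bp downstream, at the 36.9th percentile in SMC line 1 and the 88.3rd in SMC line 2. *Grin2b*, which encodes the GluN2B subunit of NMDA receptors, had a pileup of 3 reads in SMC line 1 (19.7th percentile, -log10 q of 0.469) and of 8 reads in SMC line 2 (68.2nd percentile). At *Chrna4*, which encodes the alpha4 subunit of the main nicotinic receptor of the brain, the peak of SMC line 1 lay 16 bp downstream and that of SMC line 2 lay 2816 bp upstream, so the lines did not share a region.

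None of the 6 was SMC-only with strong peaks alone, where *Gria2* and *Gria4* took their place. After thinning, SMC-only promoters were those of *Gria2*, *Grik2* and *Chrna5*. The counts of all genes moved as well, to 1.63% at the stricter limit and 3.44% after thinning. With lists cut to equal length, *Chrna4* was no longer SMC-only. It also dropped out with promoters of 2 kb or 1 kb, where *Chrna3* came in, joined at 1 kb by *Gabra4* and *Gabrb1*. With the TSS of every transcript, *Grik1* dropped out.

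**Figure D2:**
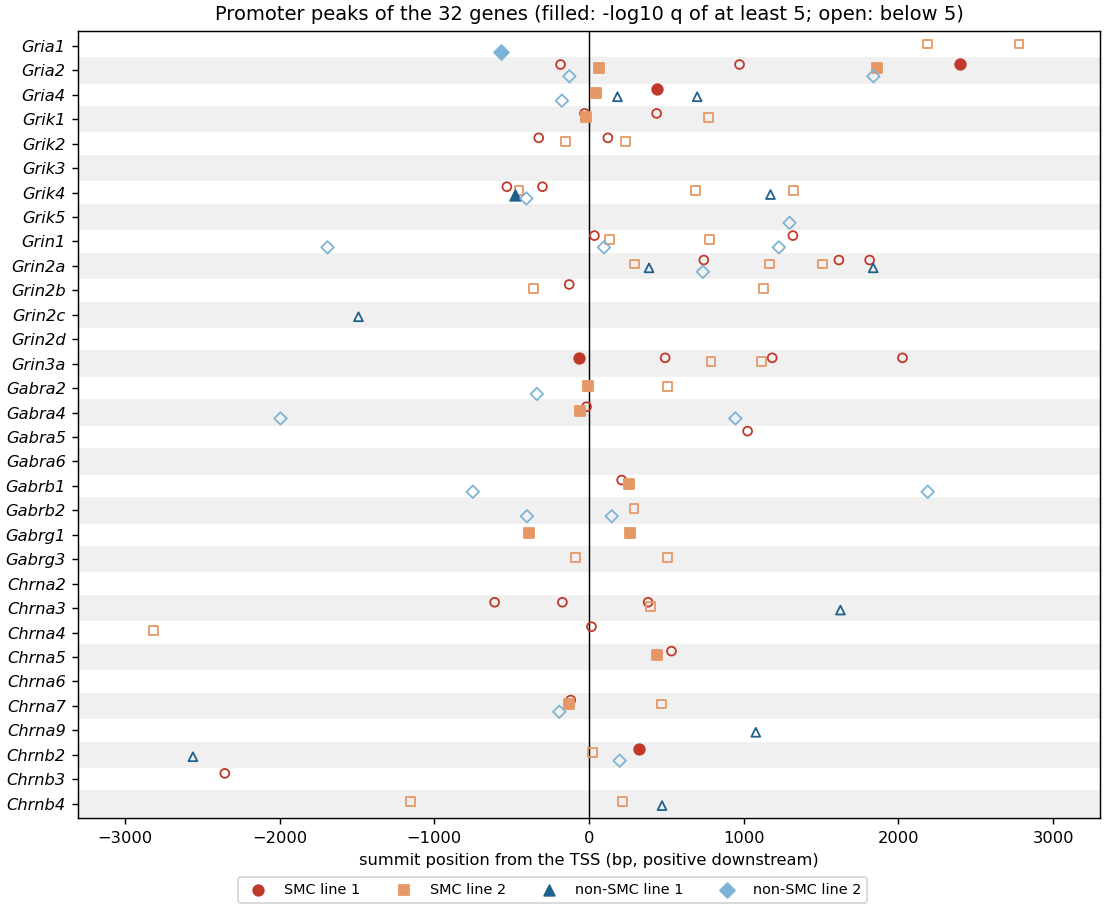
Position of every promoter peak of the 32 genes (rows) relative to the TSS (x axis, bp), by line, with filled symbols for a -log10 q of at least 5 and open symbols below it. *Grik1*, *Grik2*, *Grin2b*, *Grin3a*, *Chrna4* and *Chrna5* carry symbols of the SMC lines alone, and *Grik3*, *Grin2d*, *Gabra6*, *Chrna2* and *Chrna6* carry none.

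AMPA receptor genes showed opposite patterns. *Gria1* (ENSMUSG00000020524.16, chromosome 11, 57011387 to 57330244, plus strand), which encodes GluA1, had 2 peaks in SMC line 1, 17 in SMC line 2 and 26 in each non-SMC line. Both non-SMC lines were above both SMC lines, at 22.4 and 20.2 against 2.20 and 11.0 peaks per 100000 listed, and 9 of its 60 regions were non-SMC-only. None of these regions touched the promoter, where SMC line 2 and non-SMC line 2 had peaks.

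Introns of *Gria1* held the first 2 ranks among the 25 non-SMC-only regions. The first, 119 kb into the gene (chr11:57130240-57130440 around its summit), stood at the 98.3rd and 99.3rd percentiles of the non-SMC lists, with pileups of 54 and 28 reads. The second, 80.1 kb into the gene, stood at the 96.9th and 98.9th percentiles with 133 and 44 reads. At that second region the local background was also raised, 5.89 and 3.74 times the lowest of its library, against 1.75 and 1.60 times at the first. The part of the raised background in these peaks was not tested.

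*Gria4* (ENSMUSG00000025892.16, chromosome 9, 4417896 to 4796234, minus strand), which encodes GluA4, had 8 and 9 peaks in the SMC lines and 2 and 4 in the non-SMC lines. With strong peaks alone these counts were 4, 6, 0 and 0. Its promoter was open in all 4 lines, at the 93.7th and 91.8th percentiles in the SMC lines and the 49.0th and 61.1st in the non-SMC lines. The 4 SMC-only regions all lay in introns, between 290.9 and 336.6 kb from the TSS. The strongest of them stood at the 87.7th and 95.5th percentiles, the region whose sequence is shown above at the 88.1st and 89.2nd, and another, 311.4 kb from the TSS (chr9:4484571-4485262), at the 87.7th and 85.7th.

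*Gria2*, which encodes GluA2, the subunit that makes AMPA receptors impermeable to calcium once its RNA is edited, had 5, 6, 4 and 4 peaks. Its promoter had peaks in every line but non-SMC line 1. The strongest stood at the 92.3rd percentile in SMC line 1 (2395 bp downstream) and the 88.6th in SMC line 2 (62 bp downstream), and both peaks of non-SMC line 2 stood at the 41.7th with 4 reads each.

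**Figure D3:**
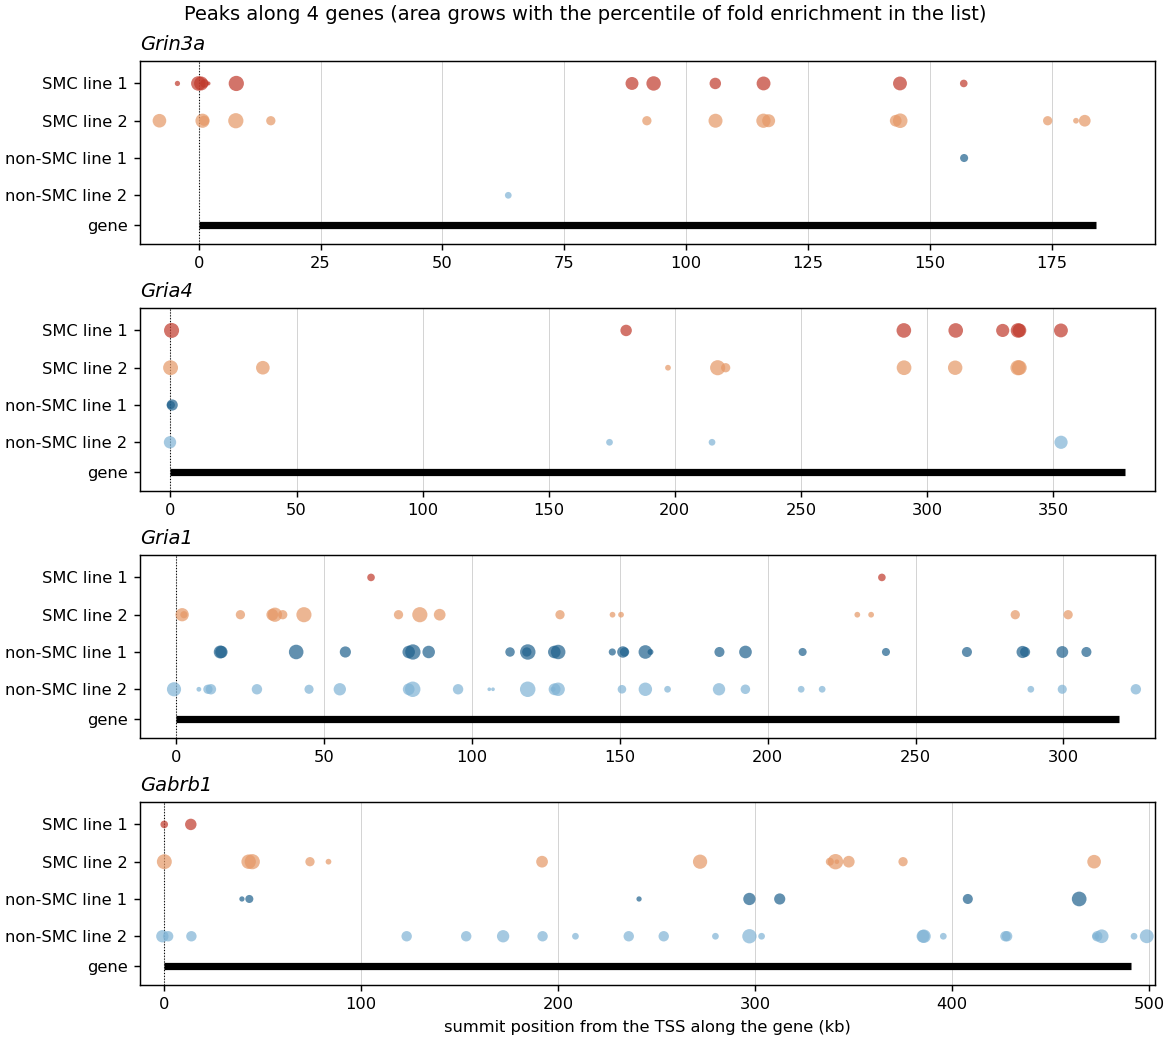
Peaks of each line (symbols, area growing with the percentile of fold enrichment in its list) along *Grin3a*, *Gria4*, *Gria1* and *Gabrb1*, with distance from the TSS in kb on the x axis and the gene as a black bar. *Grin3a* holds 12 and 14 SMC peaks against 1 and 1 non-SMC peaks, and *Gria1* holds 26 peaks in each non-SMC line.

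Kainate receptor windows held 41, 108, 28 and 63 peaks. *Grik1* had 7, 13, 3 and 7 and *Grik2* had 4, 6, 2 and 4, and per 100000 listed peaks both were higher in both SMC lines. An intron of *Grik1* 118.8 kb from the TSS (chr16:88171120-88171540) was SMC-only at the 92.3rd and 89.2nd percentiles, and another 374.9 kb from the TSS (chr16:87915096-87915520) was non-SMC-only at the 93.4th and 91.2nd percentiles. Opposite patterns thus occurred within 1 gene.

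*Grik4*, which encodes GluK4, had the most peaks in total (127), 19, 60, 15 and 33 by line, of which few were strong (0, 2, 3 and 2 with a -log10 q of at least 5). Its highest-ranked region of either class was non-SMC-only, 63.2 kb from the TSS, at the 83.2nd and 93.3rd percentiles. *Grik3* had 7, 19, 4 and 12 peaks, none in its promoter. *Grik5*, which encodes GluK5, had 4, 10, 4 and 7, and its local background was 2.86 times the lowest of the library in SMC line 1.

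NMDA receptor windows held 47, 90, 46 and 65 peaks. The clearest gene was *Grin3a*, with 12 and 14 peaks in the SMC lines and 1 in each non-SMC line (13.2 and 9.09 against 0.863 and 0.777 peaks per 100000 listed). It had 6 SMC-only regions of 20, more than any other of the 32 genes. The strongest, 7.7 kb into the gene (chr4:49837762-49838201), stood at the 96.1st and 95.9th percentiles with 12 and 21 reads. The sequence shown for it is repetitive, since 60% of its bases match those 31 bases further on, against a median of 34.1% over the 54 regions of both classes. How far repeated sequence raised that peak was not tested. Without it, the gene had 5 further SMC-only regions, the next at the promoter.

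*Grin2b* (chromosome 6, 135713233 to 136173511, minus strand) had an SMC-only promoter but the opposite pattern in its body. Its window held 6 and 17 peaks in the SMC lines against 13 and 30 in the non-SMC lines, or 6.59 and 11.0 against 11.2 and 23.3 per 100000 listed. The margin between SMC line 2 and non-SMC line 1 was small. Of its 57 regions, 4 were non-SMC-only and 2 SMC-only. The strongest non-SMC-only intron lay 42.9 kb from the TSS, at the 90.9th and 87.1st percentiles. Another, 213.7 kb from the TSS (chr6:135959485-135960055), stood at the 87.8th and 76.6th percentiles.

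*Grin2a*, which encodes GluN2A, had 12, 35, 17 and 18 peaks with a promoter open in all 4 lines. Its strongest SMC-only intron (chr16:9813176-9813521) stood at the 90.7th and 83.4th percentiles. *Grin1*, which encodes the subunit required in every NMDA receptor, had 6, 6, 4 and 8 peaks and promoter peaks in every line but non-SMC line 1. *Grin2d* had 9, 15, 7 and 5 peaks and *Grin2c* 2, 3, 4 and 3. At *Grin2c* the median local background was 3.14, 2.31, 1.88 and 3.46 times the lowest of the library, the highest of the 32 genes in 3 lines.

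GABA-A receptor windows held 8, 26, 11 and 51 peaks, and non-SMC line 2 had the most. *Gabrb1*, which encodes the beta1 subunit, had 2, 13, 7 and 23 peaks, and *Gabrg3* 3, 2, 1 and 13, so that non-SMC line 2 alone set most of the group's total. *Gabrb2* had 0, 2, 2 and 6 peaks, and both non-SMC lines were higher per 100000 listed (1.73 and 4.66 against 0 and 1.30). Its non-SMC-only intron, 191.4 kb from the TSS, stood at the 73.8th and 94.9th percentiles.

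Strong peaks in this group were mostly those of SMC line 2, which had 9 with a -log10 q of at least 5 against 1, 2 and 5 in SMC line 1 and non-SMC lines 1 and 2. *Gabrg1*, which encodes the gamma1 subunit, had a promoter peak at the 96.9th percentile in SMC line 2 (pileup 23 reads) and none in the other lines. *Gabra2*, the gene of the alpha2 subunit, had one at the 87.6th percentile in that line, 5 bp upstream of the TSS, and at the 61.1st in non-SMC line 2. The promoter shared head to head by *Gabrb1* and *Gabra4* was at the 92.2nd percentile in SMC line 2 (18 reads) but at the 19.7th in SMC line 1 (3 reads), and non-SMC line 2 had other, weaker peaks within 3 kb.

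The 4 genes *Gabrg1*, *Gabra2*, *Gabra4* and *Gabrb1* are neighbours on chromosome 5, and together their windows held 3, 21, 7 and 30 peaks, without separation of the types. *Gabra5* had 2, 1, 0 and 2 peaks and *Gabra6* 0, 0, 1 and 0. Of the 2 SMC-only regions in the GABA windows, 1 was the promoter of *Gabrb1* and *Gabra4*, and the other lay in the *Gabra5* window at the promoter of a neighbouring gene outside the 32.

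**Figure D4:**
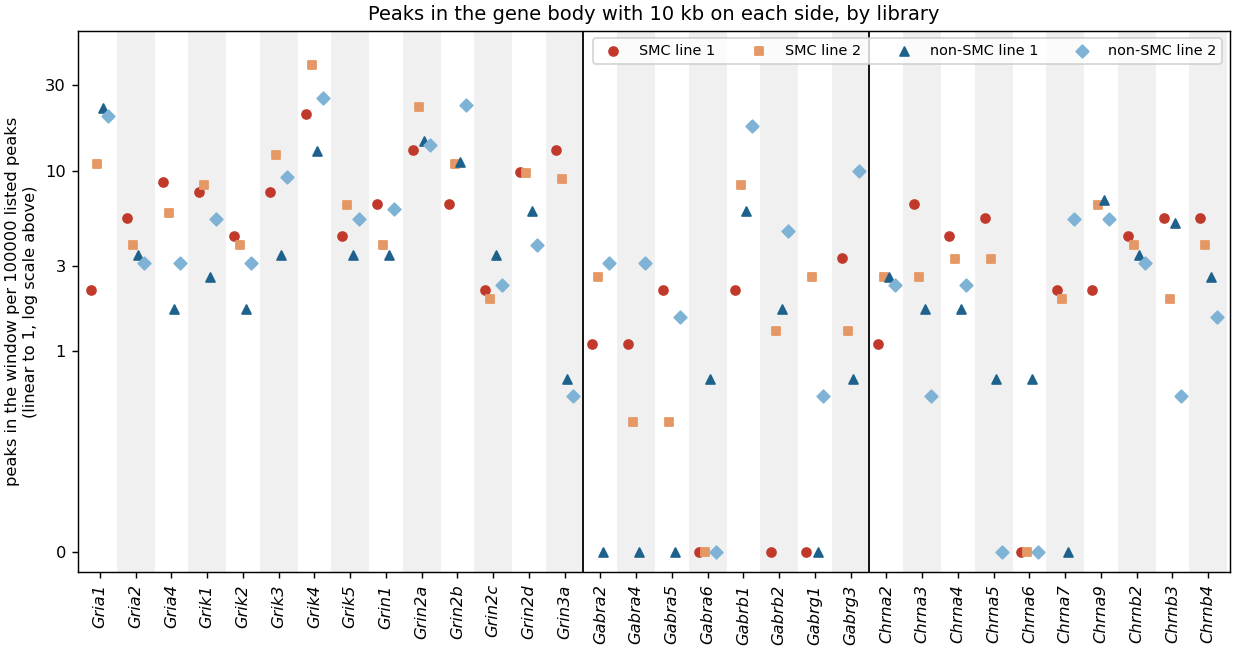
Peaks in the window of each of the 32 genes (x axis) per 100000 listed peaks of each line (y axis, log scale above 1 and linear below). *Grin3a* and the *Chrna5*, *Chrna3* and *Chrnb4* genes lie higher in both SMC lines, *Gria1* and *Grin2b* in both non-SMC lines, and GABA genes spread widely between lines of a type.

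Nicotinic receptor windows held 28, 42, 27 and 27 peaks, few of them strong (2, 5, 4 and 2 with a -log10 q of at least 5). *Chrna5*, *Chrna3* and *Chrnb4* lie next to each other on chromosome 9, between 54980880 and 55048779, and their windows overlap, so that they are not independent. Their joint window held 10 and 11 peaks in the SMC lines and 4 and 2 in the non-SMC lines, a log2 difference of 1.94 with an SD between lines of 0.65, and 1.67 and 2.20 within line pairs 1 and 2. *Chrna3* and *Chrnb4* encode the alpha3 and beta4 subunits of the ganglionic nicotinic receptor. *Chrna5* had 5, 5, 1 and 0 peaks, *Chrna3* 6, 4, 2 and 1, and *Chrnb4* 5, 6, 3 and 2.

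This cluster held all 3 SMC-only regions of the nicotinic genes. They lay in an intron of *Chrnb4* 4.3 kb from the TSS (61.8th and 63.5th percentiles), at the promoter of *Chrna5*, and at the promoter of *Chrna3* (8.59th and 64.8th percentiles). None of the 3 passed a -log10 q of 5 in both SMC lines.

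*Chrna9*, which encodes the alpha9 subunit of hair cells, had 2, 10, 8 and 7 peaks and both non-SMC-only regions of the nicotinic genes. The stronger, an intron 38.5 kb from the TSS (chr5:65973017-65973767), stood at the 91.6th and 94.1st percentiles with pileups of 34 and 17 reads. Its sequence above has 2 AP-1 matches, and the weaker region, 15.4 kb from the TSS, has 1.

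The remaining nicotinic genes were less clear. *Chrna7*, which encodes the homomeric alpha7 receptor, had 2, 3, 0 and 7 peaks and promoter peaks in every line but non-SMC line 1, the strongest at the 85.7th percentile in SMC line 2. *Chrnb2*, the usual partner of alpha4, had 4, 6, 4 and 4 peaks and a promoter open in all lines. *Chrna4* had 4, 5, 2 and 3, *Chrnb3* 5, 3, 6 and 1, *Chrna2* 1, 4, 3 and 3, and *Chrna6* 0, 0, 1 and 0. The median local background at *Chrna4*, near the end of chromosome 2, was 1.25 to 1.86 times the lowest of each library.

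Across the 26 genes with at least 10 peaks in total, 11 windows (42.3%) took a higher share of the peaks in both SMC lines than in either non-SMC line, against 22.3% of all genes with as many peaks. They were *Gria2*, *Gria4*, *Grik1*, *Grik2*, *Grin2d*, *Grin3a*, *Chrna3*, *Chrna4*, *Chrna5*, *Chrnb2* and *Chrnb4*. The windows of *Chrna3*, *Chrna5* and *Chrnb4* overlap and share peaks, so these are not independent counts. The minimum of 10 peaks was summed over the same 4 lists, for all genes alike. A window could therefore pass it through the type in which it was higher. *Chrna5* passed with 5, 5, 1 and 0 peaks, and *Gabrb2*, in the opposite order, with 0, 2, 2 and 6. The opposite order was found for 4 windows (15.4%, against 18.7%), those of *Gria1*, *Grin2b*, *Grin2c* and *Gabrb2*. Among windows of at least 100 kb, 5 of 14 receptor genes (35.7%) were higher in SMC and 3 (21.4%) in non-SMC, against 23.7% and 27.1% of all such genes. The count for SMC depended on the processing. With equal list lengths it was 5 of 18 windows (27.8%, against 16.8% of all genes), and with gene bodies alone 5 of 16 (31.3%, against 22.1%). *Gria4* and *Gria1* kept their order under every alternative that was tried.

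Merged over the lists, the windows held 676 regions, and most of them (568, 84.0%) were seen in 1 line, against 74.9% for all genes. SMC-only regions numbered 29 (4.29%), a share at the background of 4.3%. Non-SMC-only regions numbered 25 (3.70%), below the background of 7.14%, and 7 regions (1.04%) had a peak in all 4 lines, against 5.16%. The count of SMC-only regions is thus no more than that of other genes, while regions open in non-SMC lines or in all lines were scarcer.

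The location of the regions was counted for each class. Of the 29 SMC-only regions, 8 lay in a promoter of the 32 genes, 20 in introns and 1 downstream. Of the 25 non-SMC-only regions, 23 lay in introns, 2 downstream and none in a promoter. Locations were not counted over all protein-coding genes, so this split cannot be called particular to receptor genes. Glutamate windows held 24 SMC-only and 20 non-SMC-only regions of 487 (4.93% and 4.11%). GABA windows held 2 and 3 of 88 (2.27% and 3.41%), and nicotinic windows 3 and 2 of 101 (2.97% and 1.98%). Over all protein-coding genes the shares were 4.30% and 7.14%.

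**Figure D5:**
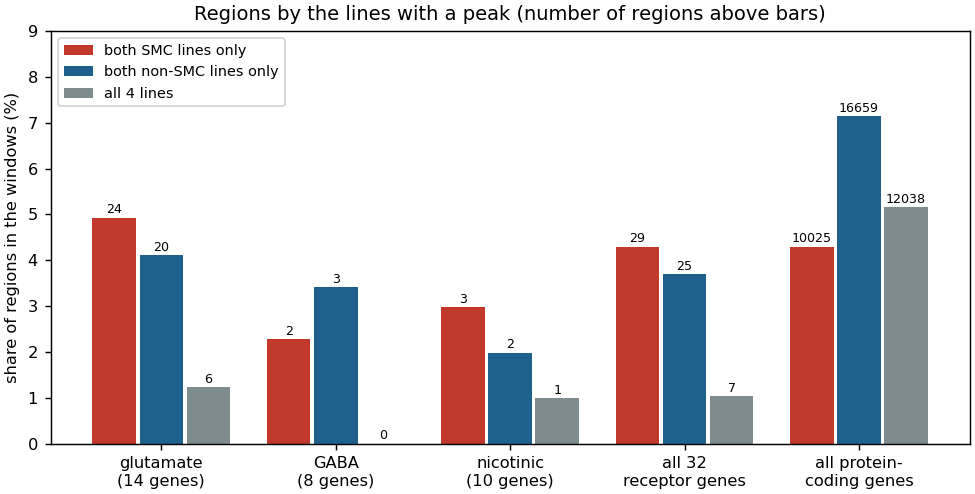
Share of merged regions in the windows (y axis, percent) with a peak in both SMC lines only, in both non-SMC lines only and in all 4 lines, for each receptor group, for all 32 genes and for all protein-coding genes, with the number of regions above each bar. The 32 genes reach 4.29%, 3.70% and 1.04%, and all protein-coding genes 4.3%, 7.14% and 5.16%.

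Motifs were read within 100 bp of the summit on both strands, and no motif searched contains another. AP-1 (TGACTCA or TGAGTCA) was present in 11 of 25 non-SMC-only regions (44%) and in none of 29 SMC-only regions, against 46.5% and 4.14% of all regions of these classes in the genome. The TEAD core GGAATG was present in 4 of 25 (16%) and in none of 29, against 19.3% and 9.39%. The E-box CAGCTG was present in 3 of 25 (12%) and in 7 of 29 (24.1%), against 14% and 21.1%. The shares of non-SMC-only regions and the E-box share of SMC-only regions were close to those of their class over the genome. Those shares describe the class and nothing particular to receptor genes. AP-1 and TEAD matches were absent from the 29 SMC-only regions, against 4.14% and 9.39%, and whether that differs from the class was not tested.

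No region of either class matched the RE1 core. In the RefSeq promoters of the 24 matched genes, the E-box was found at *Chrna9* and *Chrnb4*, the TEAD core at *Grin1*, *Gabrb1* and *Gabrb2* and AP-1 at none, where 16.3%, 14.7% and 5.20% of all promoters held them. The *Chrna9* promoter (chr5:65966874-65967173) and the *Gabrb1* promoter with the TEAD core (chr5:71699682-71699981) are not those scored for peaks above. They lie inside the genes, away from the TSS used, and had no peak in any line. *Gria2*, the gene with the RE1 core, had promoter peaks in both SMC lines and in non-SMC line 2.

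Genes that work with these receptors were counted in the same way. Over all protein-coding genes, 3.08% of promoters were SMC-only and 2.45% non-SMC-only. Each list below is short, so a few promoters set its share. Of 28 genes for partners of glutamate receptors (auxiliary subunits, scaffolds and transporters), 2 promoters were SMC-only, those of *Cacng4* and *Grip1*, and 2 non-SMC-only, those of *Cacng7* and the glial glutamate transporter *Slc1a3*. *Grip1*, whose protein binds AMPA receptors, had 44 and 68 peaks in the SMC lines and 10 and 21 in the non-SMC lines. Of 14 genes for GABA partners, no promoter was non-SMC-only. Of 12 genes for partners of nicotinic receptors, 3 promoters were SMC-only, those of *Ric3*, a chaperone of these receptors, *Ly6h* and *Bche*, and none was non-SMC-only. *Ric3* had 4 and 6 peaks in the SMC lines and none in the non-SMC lines. Of 13 genes for other transmitter-gated channels, the promoter of the serotonin receptor gene *Htr3a* was SMC-only, and none was non-SMC-only.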

How the data were processed

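ATAC-seq was performed on 2 SMC and 2 non-SMC lines, 1 library per line. The authors mapped paired-end reads to mm10 with Bowtie2 2.3.4, removed duplicates and called peaks with MACS2 2.1.1 in each library separately, without pooling lines. The settings of the peak calling are not given in the sources used here, and the lists end at a p-value of 0.01. For each summit the authors deposited the fold enrichment over the local background (a ratio), the -log10 of the p-value and the -log10 of the q-value. The score the authors deposited was not used. The peak lists hold no read counts, so pileup and background were recovered from the ratio and the p-value, for all but 3 to 5 peaks per list. Depth was read from the lowest background of each library, and values were ranked within a list.

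Genes are those of GENCODE M21. Overlapping peaks of the lists (1 base or more) were joined into regions. SMC-only means present in the 2 SMC lists and absent from the other 2, and non-SMC-only the reverse, for regions and promoters alike. All 32 genes are named, with the 8 regions of each class whose mean percentile was highest. Sequences are given for the highest of each receptor group, and for a further region of *Gria4* and of *Gria1*. The sequence of 1 such region, at a neighbouring gene, and the results for some genes of the marker and partner lists are not reported here. The genes, partner lists, motifs and alternatives were chosen with earlier results of these data known. Alternatives were strong peaks alone (-log10 q of 5 or more), equal lists of the top 91057 peaks, thinning to 50% of the depth of the shallowest library, each library left out, a reciprocal overlap of 50%, windows without flanks or with 50 kb flanks, promoters of 2 kb or 1 kb and the TSS of every transcript. On simulated data, 18890 peaks were recovered within 1% and all 136 planted regions of each class were found. For 4000 listed peaks of SMC line 2, moved and resized at random, the overlaps with peaks of SMC line 1 equalled those of bedtools. The software was bedtools 2.31.1 and Python 3.11.15 with pandas 2.3.3, scipy 1.17.1, numpy 2.4.6 and matplotlib 3.10.9.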

Additional observations from a re-analysis of the deposited data

Results flagged for a closer look

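In 3 windows the line pairs of equal number went in opposite directions by at least 1.5-fold each (log2 of SMC over non-SMC peaks per listed peak, with 0.5 peaks added). The values were 0.88 in pair 1 and -0.65 in pair 2 for *Grin1*, 1.57 and -2.69 for *Gabrg3*, and 2.67 and -1.36 for *Chrna7*. Whether the pairs differ was not tested. A pair has no replicate, and the counts are low, with at most 8 peaks in any line at *Grin1*, 13 at *Gabrg3* and 7 at *Chrna7*. At all 3 genes non-SMC line 2 had more peaks than non-SMC line 1.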

How the results depend on the processing

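With a -log10 q of at least 5, SMC-only regions numbered 8 and non-SMC-only regions 9, SMC-only promoters 2, windows higher in SMC 1 and in non-SMC 1 (of 3 with enough peaks), the promoter difference was 17.2 percentage points and the log2 difference in the share of listed peaks rose to 0.96. After thinning, SMC-only regions numbered 18, SMC-only promoters 3 and windows higher in non-SMC 2. With the same number of top peaks, windows higher in SMC numbered 5 of 18 and in non-SMC 1. A reciprocal overlap of 50% left 16 SMC-only regions. Without flanks, windows higher in SMC numbered 5 of 16 and in non-SMC 2, and with 50 kb flanks SMC-only regions numbered 44 and non-SMC-only regions 39. With each library left out in turn, SMC-only regions ranged from 32 to 258, non-SMC-only regions from 28 to 203, SMC-only promoters from 7 to 11 (11 without non-SMC line 2), non-SMC-only promoters from 0 to 2, windows higher in SMC from 10 to 15 and in non-SMC from 3 to 5, the promoter difference from 21.9 to 37.5 points and the log2 difference from -0.12 (without non-SMC line 1) to 0.47. With a library left out, fewer lists must share or lack a peak, and the counts of regions rise with it. The labels call the lines paired, and with the line number as a replicate block the log2 difference was 0.18, unchanged because the block only averages 0.30 and 0.05 within pairs 1 and 2. Whether lines of equal number share a mouse is not given in the sources used here. The promoter difference of all 32 genes, which was beyond its SD between lines, kept its sign under every alternative tried for it. The log2 difference lay within its SD (0.18 beside 0.34), so it gave no direction that could be called reversed. Its sign changed without non-SMC line 1. Pooling the AMPA windows without *Gria1*, chosen after seeing the data, turned their log2 difference to 1.06. Depth limits the weak peaks most, since a peak of SMC line 1 could rest on 3 reads.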
